A study of Cephalotaxus fortunei with 9 samples.

Results

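The leaf and the stem of Cephalotaxus fortunei, a plum yew, were compared across all transcripts. Of the 9 libraries of the series 6 were used, the 3 leaf and 3 stem libraries, chosen by their labelled tissue. The 3 root libraries were left out of the fit. All libraries came from poly(A) RNA, and the series sets expression across organs against the search for enzymes of cephalotaxine and homoerythrina alkaloids. The labels give the organ and a replicate number, and no age, genotype or treatment. Whether libraries of an organ were taken from different plants is not stated. The p-values thus reflect only the variation among these libraries, some of which may be technical.

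As background, conifer leaves are the main photosynthetic organ and carry the pigment-protein complexes and carbon-fixing enzymes of the chloroplast. The stem joins bark, phloem, cambium and lignified xylem, and conducts water and sugars. Each organ is therefore a mixture of cell types, and fewer cells of a type cannot be told apart from less RNA per cell in these bulk libraries. The deposited tables name 37051 transcripts by running number and do not pair the numbers with gene names, so neither organ could be checked against defining markers. Transcripts are described here by level, length and direction.

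Leaf libraries held 12809484 to 14606814 estimated reads and stem libraries 18417327 to 19652495. Abundance is given in TPM (transcript abundance scaled by length to a fixed total per library). Transcripts were sorted into abundance classes by their mean TPM over the 6 libraries, a mean to which both organs contribute equally. Of the 37051 transcripts, 18825 had enough reads to be tested. The test kept 1153 of 15842 transcripts under 1 TPM, 8088 of 11610 from 1 to 10 TPM, 7974 of 7989 from 10 to 100 TPM, and all 1507 and 103 in the classes of 100 to 1000 TPM and of 1000 TPM or more. The class under 1 TPM was thus represented by few of its members, none of them up to 300 bases long, with a median of 17 reads in leaf and 15.9 in stem.

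Stem and leaf differed in direction according to how abundant the transcripts were. Among transcripts called different, weakly expressed ones were more often higher in leaf, and strongly expressed ones were more often higher in stem. In all, 7128 transcripts, 37.9% of those tested, were called different (edgeR quasi-likelihood test, Benjamini-Hochberg adjusted p under 0.05 and at least 2-fold). Leaf was higher for 3778 (20.1%) and stem for 3350 (17.8%). These counts used TMM scaling, which sets library sizes so that the bulk of transcripts centres near no change. With library totals alone, the median log2 fold change of leaf over stem at 100 to 1000 TPM was 0.07. The lean to stem in that class was then one of calls (314 against 268) and not of its median.

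Between 1 and 10 TPM, 1990 transcripts were higher in leaf and 1132 in stem, so leaf took 63.7% of the calls. Between 10 and 100 TPM the directions were nearly even, with 1385 higher in leaf and 1542 in stem. From 100 to 1000 TPM, 161 were higher in leaf and 453 in stem, and leaf took 26.2% of the calls. At 1000 TPM or more, 16 were higher in leaf and 41 in stem. The share called in either direction changed less, from 36.7% of transcripts at 10 to 100 TPM to 40.7% at 100 to 1000 TPM, set against 37.9% for all those tested. It was 55.3% among the 103 transcripts at 1000 TPM or more.

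**Figure D1:**
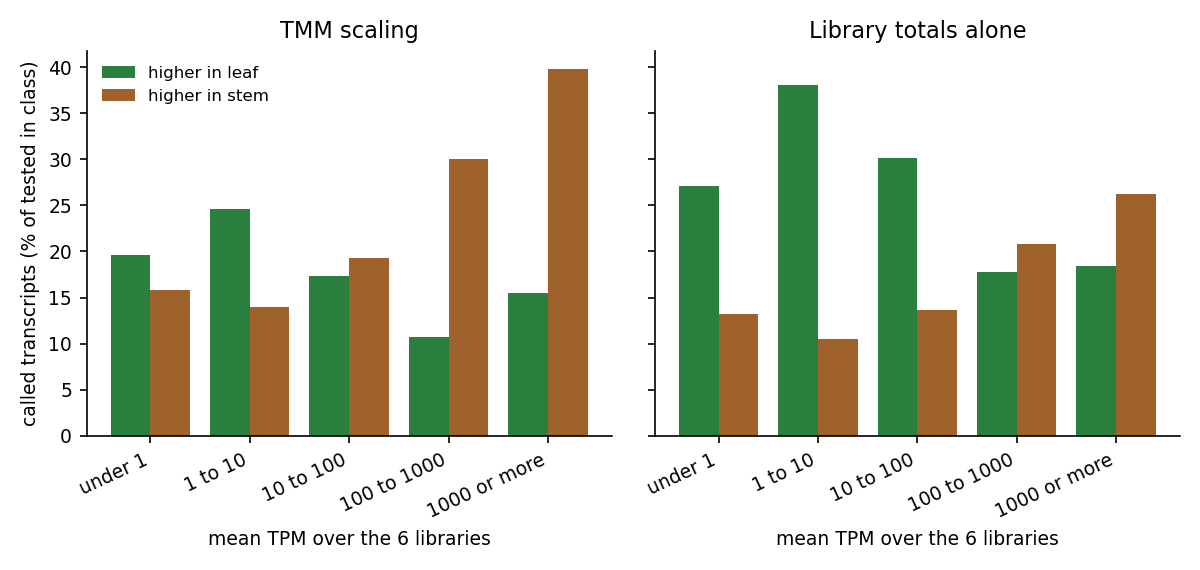
Called transcripts as a percentage of those tested (vertical axis) in each abundance class (horizontal axis, mean TPM over the 6 libraries), higher in leaf (green) or in stem (brown), under TMM scaling and under library totals alone. Stem calls outnumber leaf calls in both classes at 100 TPM or more under either scaling, and leaf calls outnumber stem calls between 1 and 10 TPM.

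The fold changes shifted in the same way. The median log2 fold change of leaf over stem was 0.38 at 1 to 10 TPM, -0.01 at 10 to 100 TPM, -0.43 at 100 to 1000 TPM and -0.60 at 1000 TPM or more, compared with 0.10 over all tested transcripts. Its middle 50% ran from -0.57 to 1.29 at 1 to 10 TPM and from -1.23 to 0.19 at 100 to 1000 TPM, so the classes overlapped widely. Under 1 TPM the median was 0.25.

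**Figure D2:**
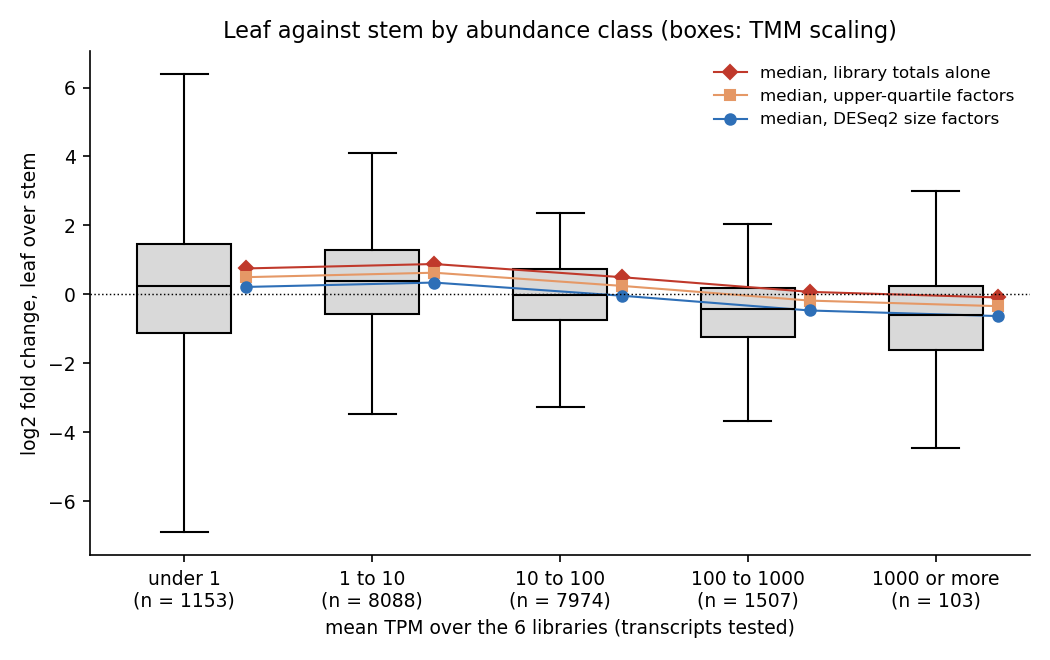
Log2 fold change of leaf over stem (vertical axis) by abundance class (horizontal axis) for 18825 tested transcripts. Boxes give the middle 50% and the median under TMM scaling, whiskers the 5 and 95 percentiles, and coloured points the class medians under 3 other scalings, which move the whole row up or down while its slope from 1 to 10 TPM to the highest class remains.

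Single libraries showed the same order. In each of the 9 pairs of a leaf with a stem library, the median log2 ratio of TPM + 0.1 decreased from 1 to 10 TPM through each class to 1000 TPM or more. On this scale, which has no TMM correction, it was 0.72 to 1.01 at 1 to 10 TPM, 0.43 to 0.52 at 10 to 100 TPM, 0.04 to 0.10 at 100 to 1000 TPM and -0.22 to -0.01 at 1000 TPM or more. The 9 pairs share libraries and are not independent.

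The level that defines the classes comes from the same libraries as the fold change. Classes were therefore also drawn from root, whose libraries were not in the fit. This alternative was added once results were known. With root replicates 1 and 2, which hold nearly the same values (Spearman's rho 0.997 across transcripts), averaged and counted as 1 sample, the median log2 fold change of leaf over stem was 0.25 for transcripts at 1 to 10 TPM in root, 0.03 at 10 to 100 TPM, -0.23 at 100 to 1000 TPM and -0.76 for the 67 transcripts at 1000 TPM or more. Without root replicate 3, whose rho with the other root libraries was 0.731, these medians were 0.26, 0.03, -0.25 and -0.60. Calls from 100 to 1000 TPM in root numbered 198 higher in leaf and 268 in stem under TMM. With library totals alone they numbered 313 and 165, so the majority in this class depended on the scaling.

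Under TMM scaling, large differences occurred in both directions, with stem ahead at 4-fold or more and at 8-fold or more, and near-even numbers at 32-fold or more. Of the tested transcripts, 54.9% differed less than 2-fold, and 23.5% differed between 2-fold and 4-fold. Calls with at least a 4-fold difference comprised 1804 transcripts that were higher in leaf and 1927 in stem, and those of at least 8-fold 1019 and 1187. At 32-fold or more there were 465 and 455, whereas between 2-fold and 4-fold leaf calls were in excess (1974 against 1423). With library totals alone, leaf led at each of these sizes, with 2749 against 1484 at 4-fold and 1324 against 932 at 8-fold. Where an organ had 0 reads, 3 reads over its libraries served as the floor, equal to 0.0530 CPM (counts scaled to a fixed library total) in stem and 0.0736 CPM in leaf, which covers counting error only. The median absolute log2 fold change of calls was 1.93 for leaf and 2.29 for stem with this floor.

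Large differences occurred in every class of tested transcripts. Under TMM, differences of at least 8-fold were found in 20.9% of tested transcripts under 1 TPM, 13.0% of tested transcripts at 1 to 10 TPM, 9.14% at 10 to 100 TPM, 11.1% at 100 to 1000 TPM and 19.4% at 1000 TPM or more. The filter needed enough reads in 1 organ only, which favours large differences where reads are few. Under 1 TPM the median absolute log2 fold change was 1.31 for the 1153 tested transcripts. It was 0.58 for the 155 with at least 10 reads in each library, a rule that in turn removes transcripts low in 1 organ. At 32-fold the highest class held 4 transcripts, all higher in stem. At 8-fold, stem led by 455 to 274 at 10 to 100 TPM and by 122 to 46 at 100 to 1000 TPM, leaf led by 575 to 473 at 1 to 10 TPM, and under 1 TPM stem had 124 and leaf 117.

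Some calls were without reads in the other organ. Of the 3778 leaf calls, 341 (9.03%) had 0 reads in all stem libraries, and 136 of these stood at a leaf mean of 10 TPM or more. Of the 3350 stem calls, 231 (6.90%) had 0 reads in all leaf libraries, and 70 of these reached 10 TPM in stem. A further criterion was at least 1 TPM in each library of the higher organ and less than 1 TPM in each library of the other. It was met by 1008 leaf calls and 500 stem calls. This criterion uses TPM without TMM correction, a scale on which more transcripts reached 1 TPM in leaf than in stem (means of 21108 and 18189). These counts are therefore not balanced for scaling. The stem libraries were the deeper ones, and reads of near-identical transcripts are divided between them, so 0 reads does not show absence. The leaf calls had a median leaf level of 12.8 TPM, and the stem calls a median stem level of 24.8 TPM.

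The stem pool was concentrated in fewer transcripts. The number of transcripts needed to hold 50% of TPM was 505, 520 and 557 in the leaf libraries and 306, 343 and 329 in the stem libraries. All leaf values lay above all stem values, with means of 527 ± 26.8 in leaf and 326 ± 18.7 in stem (SD, n = 3 each). Related measures moved with this one: 21108 ± 378 leaf and 18189 ± 520 stem transcripts reached 1 TPM, and the 100 most abundant transcripts of each library held 30.7% ± 0.451 and 36.1% ± 0.694 of TPM (SD, n = 3 each). Each of these 3 comparisons gave p = 0.10 in a two-sided exact permutation test (adjusted p = 0.10 over the 3), which is the smallest value that 3 against 3 libraries allow, so none could pass 0.05.

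**Figure D3:**
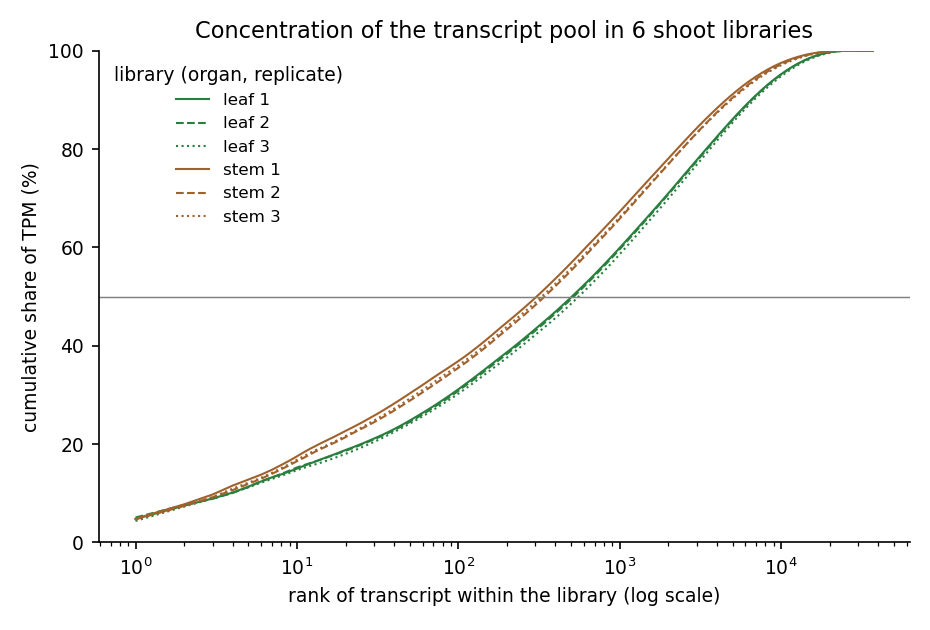
Cumulative share of TPM (vertical axis) against the rank of transcripts within each library (horizontal axis, log scale) for 3 leaf (green) and 3 stem (brown) libraries. The stem curves cross the grey line at 50% between rank 306 and 343, ahead of the leaf curves at 505 to 557.

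By abundance class, transcripts at 1000 TPM or more took 29.6%, 29.0% and 28.9% of TPM in the leaf libraries and 35.4%, 34.0% and 34.7% in the stem libraries. The groups did not overlap. Those at 10 to 100 TPM took 28.6% ± 0.404 in leaf and 24.1% ± 0.477 in stem, and those at 1 to 10 TPM 5.74% ± 0.201 and 3.45% ± 0.230 (SD, n = 3 each). The class between, at 100 to 1000 TPM, was closest, with 36.0% ± 0.423 in leaf and 37.6% ± 0.263 in stem (SD, n = 3 each). These shares sum to a fixed total in each library, so a rise in one class lowers others by construction.

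The stem excess rested on fewer transcripts than the leaf excess. Comparing mean TPM over all 37051 transcripts, 9214 were higher in stem and 21136 in leaf, without a correction for scaling. Among tested transcripts, 13000 were higher in leaf and 5825 in stem by mean TPM. Under TMM, 10057 of the tested transcripts lay on the leaf side and 8768 on the stem side. Over all transcripts, each set of mean TPM differences came to 33.2 percentage points, equal by construction because every library has the same total. In stem, 97 transcripts held 50% of that excess, and in leaf 381. The transcripts called higher in stem held 43.4% ± 0.195 of stem TPM and 12.7% ± 0.0621 of leaf TPM. Those called higher in leaf held 20.7% ± 0.209 of leaf TPM and 3.26% ± 0.140 of stem TPM (SD, n = 3 each). Since the calls come from these same libraries, the shares are a description only.

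The most abundant transcripts were partly shared. The lists of the 10 most abundant transcripts of each organ had 6 in common (60% of each list), those of 100 had 52 (52%), and those of 1000 had 655 (65.5%). In the leaf list of 100, 29 transcripts were called higher in leaf and 18 higher in stem. In the stem list of 100, 61 were called higher in stem and 2 higher in leaf. Over all tested transcripts, 20.1% were called higher in leaf and 17.8% in stem, and over those at 1000 TPM or more 15.5% and 39.8%. The lists were chosen by level in the same libraries, which favours calls higher in the organ that gave the list.

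The 4 transcripts named here were chosen by level or by fold change among calls without overlap of the organs. The most abundant transcript with a higher level in leaf was transcripts_13675 (417 bases). It stood at 14545, 12029 and 16522 TPM in the leaf libraries and at 565, 567 and 481 TPM in stem. All leaf values lay far above the stem values, with a log2 fold change under TMM of 4.14 ± 0.10 (SE, adjusted p = 3.13e-07, edgeR). It ranked 3 among leaf transcripts and 228 among stem transcripts. Outside the fit, it was at 961 and 967 TPM in root replicates 1 and 2 and at 36.6 TPM in root replicate 3.

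The stem counterpart, transcripts_15459 (704 bases), stood at 19937, 17409 and 18729 TPM in stem and at 1704, 1588 and 1659 TPM in leaf. It ranked 3 in stem and 46 in leaf, so it was abundant in both organs while differing by a log2 fold change under TMM of -4.05 ± 0.10 (SE, adjusted p = 2.80e-07, edgeR). In the root libraries it was at 22.2 to 25.5 TPM, below every shoot library.

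The largest fold changes among transcripts with at least 10 reads in every library and a mean of at least 10 TPM lay in the class of 100 to 1000 TPM. In leaf, transcripts_6833 (931 bases) stood at 431, 462 and 450 TPM and in stem at 1.30, 1.71 and 1.31 TPM. The TPM means were 311-fold apart. With TMM scaling the fitted difference was 218-fold (log2 fold change 7.77 ± 0.09, SE, adjusted p = 1.57e-07, edgeR), with 24 to 31 reads in each stem library. In stem, transcripts_18742 (719 bases) stood at 277, 213 and 247 TPM and in leaf at 1.31, 1.45 and 1.24 TPM. The TPM means were 184-fold apart and the fitted difference with TMM was 273-fold (log2 fold change -8.09 ± 0.16, SE, adjusted p = 2.07e-07, edgeR), with 14 to 17 reads in each leaf library. Which of the 2 transcripts had the larger fold thus depended on the scale. Reads in every library of the lower organ were required by the rule that chose them. None of the 4 had whole read numbers in all 6 libraries, as happens where reads are divided among transcripts. For transcripts_6833 the departure was slight, with 5856.01 reads in leaf replicate 2.

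**Figure D4:**
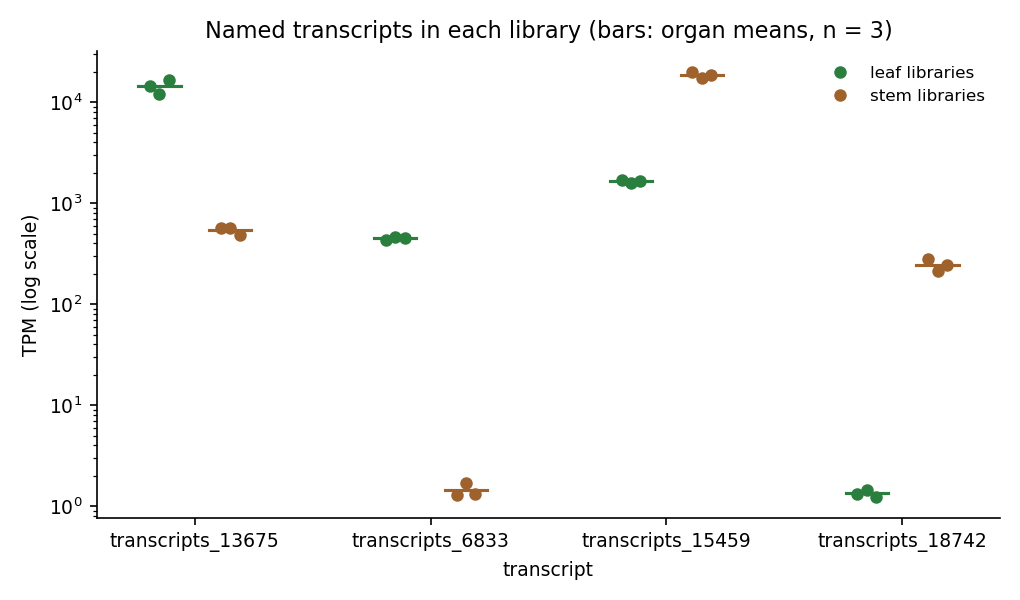
TPM (vertical axis, log scale) of the 4 named transcripts in each leaf (green) and stem (brown) library, with the organ mean as a bar. Libraries of an organ lie close together, and the organ means in TPM are 11.3-fold to 311-fold apart.

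Libraries of an organ agreed more closely with each other than with the other organ at every level of abundance. Across all 37051 transcripts, Pearson's r of log2(TPM + 1) was 0.960 to 0.962 within leaf, 0.972 to 0.973 within stem and 0.843 to 0.852 between the organs, as a description across transcripts, which are not independent. At 100 to 1000 TPM the median absolute log2 ratio, centred on the median of each pair, was 0.10 to 0.11 between leaf libraries, 0.08 to 0.10 between stem libraries and 0.68 to 0.72 between organs. At 1 to 10 TPM it was 0.38 to 0.39, 0.38 to 0.42 and 0.99 to 1.08. Under 1 TPM, the spread within an organ reached 0.57 to 0.67.

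**Figure D5:**
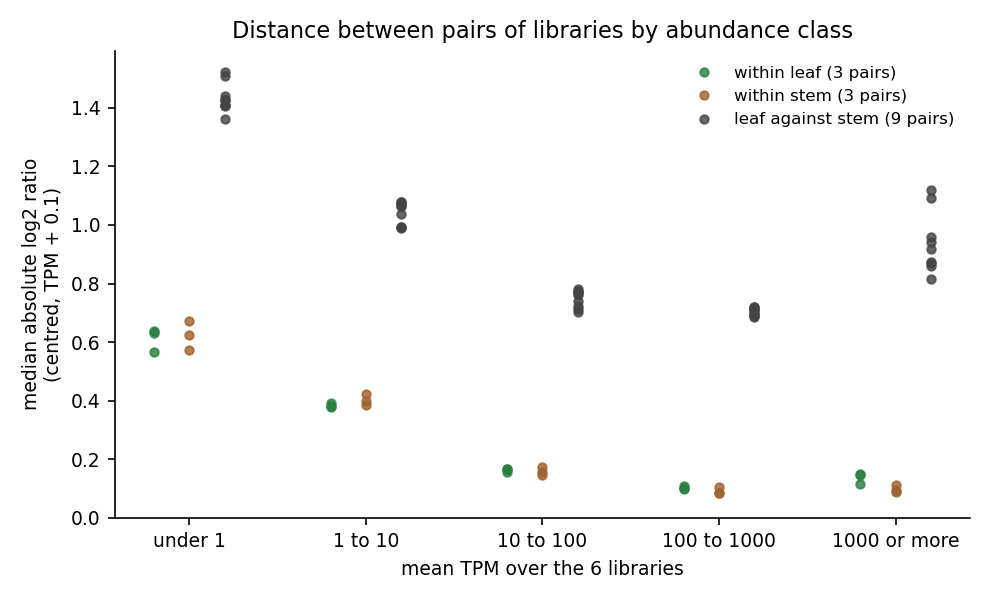
Median absolute log2 ratio of TPM + 0.1 between 2 libraries, centred on the median of the pair (vertical axis), by abundance class (horizontal axis). Each point is a pair of libraries, within leaf (green), within stem (brown) or leaf with stem (grey). The pairs across organs lie above the pairs within an organ in every class.

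The organs did not differ in a single direction in replicate spread. The median coefficient of variation over 3 libraries was 25.1% in leaf and 27.8% in stem at 1 to 10 TPM, 10.4% and 9.92% at 10 to 100 TPM, and 6.48% and 5.76% at 100 to 1000 TPM. It rose again in leaf at 1000 TPM or more, to 7.85%, against 5.81% in stem. Between 100 and 1000 TPM, at least 99.07% of transcripts lay within 2-fold of each other in every pair within an organ, and 60.8% to 62.0% did so in the pairs across organs.

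The balance between the organs depended on the scaling. With library totals alone, 8506 transcripts were called (45.2%), of which 6080 were higher in leaf (32.3%) and 2426 in stem (12.9%), so the share of calls higher in leaf moved from 53.0% to 71.5%. The median log2 fold change over tested transcripts moved from 0.10 to 0.61. TMM factors averaged 1.19 in leaf and 0.839 in stem, a log2 difference of 0.51, which by construction is the size of the shift. DESeq2 size factors gave 51.6% and a median of 0.07, and upper-quartile factors 63.0% and 0.35. On TPM, limma on log2(TPM + 1) gave 70.4%, and 51.5% once TMM factors computed on TPM were applied.

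Leaving out the most abundant transcripts from the library totals moved the balance part of the way towards that under TMM, and most with 1000 left out. Without the 10, 100 or 1000 most abundant, leaf was higher in 70.5%, 69.8% and 65.9% of calls, and the overall median log2 fold change was 0.57, 0.55 and 0.43, against 0.61 with full totals and 0.10 with TMM. Of the 7128 calls, 6204 were shared with library totals alone. No transcript called under both TMM and another setting changed direction between them. A call under TMM requires at least a 2-fold difference, and library totals moved log2 fold changes by 0.51. A rescaling of this size cannot reverse such a call, so between these scalings the lack of reversals holds by construction.

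The majority of calls was the same under every setting in some classes and not in others. Over 27 settings, including the reported one, leaf calls outnumbered stem calls at 1 to 10 TPM in all 27 (57.4% to 78.5% of calls). Stem calls outnumbered leaf calls in all 27 at 100 to 1000 TPM, where leaf took 24.7% to 46.0%, and at 1000 TPM or more, where 1 setting retained only 2 transcripts. At 10 to 100 TPM, stem led in 20 settings and leaf in 7, and under 1 TPM leaf led in 24 and stem in 3. These counts are for classes drawn from the 6 shoot libraries; with classes drawn from root the majority at 100 to 1000 TPM turned, as given above. The median at 100 to 1000 TPM was 0.07 with library totals and above 0 in 5 settings, so in this class the direction of the median, unlike the majority of calls, depended on scaling. The gap between the medians at 1 to 10 TPM and at 1000 TPM or more was 0.97 with TMM and 0.97 with library totals, since a scaling factor moves both alike.

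Transcript length moved with direction as well. Among tested transcripts of up to 300 bases, 543 were higher in leaf and 199 in stem, with a median log2 fold change of 0.75. Over 2000 bases, 680 were higher in leaf and 835 in stem, with a median of -0.07. With library totals alone the long transcripts turned to leaf (1226 against 569, median 0.44), and the short ones moved further to leaf (852 against 157, median 1.26), so the gap between them remained. The median lengths of leaf and stem calls were 849 and 1150 bases. Within the class of 10 to 100 TPM the medians were 0.82 for up to 300 bases and -0.15 for over 2000 bases, while at 100 to 1000 TPM they were -0.44 and -0.46. At 100 to 1000 TPM the medians were thus alike, whereas the calls were not: 24 leaf and 48 stem calls had up to 300 bases (33.3% leaf), and 10 leaf and 74 stem calls had over 2000 bases (11.9% leaf).

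Read sharing differed along with the short transcripts. The authors' estimated counts were whole in all 6 libraries, to within 0.001, for 3139 tested transcripts (16.7%). Among those of up to 300 bases, the median log2 fold change was 0.35 for 406 transcripts with whole counts, with 112 higher in leaf and 73 in stem. It was 0.84 for the 1274 others, with 431 and 126. The median effective length of this length class was 79.7 to 97.0 bases in leaf and 80.0 to 85.0 in stem, and offsets for effective length left its median at 0.76. Over 2000 bases, whole-count transcripts had a median of 0.18, with 71 higher in leaf and 36 in stem, and the 4966 others a median of -0.08, with 609 and 799. Among whole-count transcripts, leaf calls therefore outnumbered stem calls in the short and in the long class, and the turn to stem with length was seen in the others. The part of read sharing in the length pattern was not tested. The abundance pattern was present among whole-count transcripts, with medians of 0.54 at 1 to 10 TPM, -0.03 at 10 to 100 TPM and -0.24 for the 114 at 100 to 1000 TPM.

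Root levels of the called transcripts, on the TPM scale, did not side with stem for either set. Root lay nearer to leaf than to stem, on log2(TPM + 1), for 63.3% of leaf calls, 57.6% of stem calls and 50.2% of transcripts not called. Without root replicate 3 these were 60.9%, 57.6% and 50.7%. Root lay below both shoot organs for 15.2% of leaf calls, 37.5% of stem calls and 42.8% of transcripts not called. It lay above both for 36.7% of leaf calls, 26.0% of stem calls and 38.1% of those not called. The shares of leaf calls below both and of stem calls above both were thus lower than the background. Those of stem calls below both and of leaf calls above both were nearer to it. A call requires at least a 2-fold difference between the organs, which leaves more room for root to lie between them. Root lay between for 1814 of 3778 leaf calls, 1221 of 3350 stem calls and 2233 of 11697 transcripts not called. The contrasts with the background are thus in part fixed by how calls were chosen, and are a description only.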

How the data were processed

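RNA of leaf, root and stem was sequenced in 9 libraries. Per the labels' protocols, poly(A) RNA was made into strand-specific libraries. The tools were fastp 0.23.2 and Salmon 1.10.0, per the submitters' processing notes. The reference transcripts and the Salmon options were not given in the sources used here. Per the file headers, the authors deposited an estimated count and a TPM for each of 37051 transcripts. In each shoot library, 39.6% to 43.3% of estimated counts were not whole (tolerance 0.001), because Salmon divides reads among similar transcripts.

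Estimated counts of the 3 leaf and 3 stem libraries were rounded. In R 4.3.3, edgeR 4.0.16 was run with its expression filter by organ, TMM factors and a robust quasi-likelihood fit holding 1 mean for each organ. The SE is the log2 fold change divided by the square root of F. Alternatives used limma 3.58.1 and DESeq2 1.42.0, other scalings, filters and thresholds, the replicate number as a block, and fits without each library. The model was run on simulated data with 200 changed transcripts, picked at random and even in direction, and with the variation estimated by the fit. The data here had 7128 calls, with a direction that went with abundance. The simulation therefore does not test the scaling under such conditions. No pair of libraries within an organ agreed within sampling noise (chi-square per degree of freedom at least 14.6), so none was treated as a library deposited in duplicate; this does not show that they are independent plants.

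The comparison, classes and rules were chosen with earlier results of these data known. At most 2 transcripts per direction were named: among calls without overlap in TPM, the highest mean in the higher organ, and the largest fold change with at least 10 reads in each library and a mean of at least 10 TPM. No list of marker genes could be tested without names.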

Additional observations from a re-analysis of the deposited data

Results flagged for a closer look

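Outside the leaf and stem comparison, 1893 transcripts had 0 reads in all 6 shoot libraries and at least 3 reads in each root library. They are singled out because root was not used in the fit. Root replicates 1 and 2 hold nearly the same values (Spearman's rho 0.997) and count as 1 sample. The rule therefore does not rest on 3 separate root samples. In all, 6701 transcripts had 0 reads in the 6 shoot libraries; of these, 2081, 2078 and 4015 reached 3 reads in root replicates 1, 2 and 3. A floor of 3 reads covers counting error only.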

How the results depend on the processing

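Each of the 4 named transcripts had the same direction, with an adjusted p under 0.05, in the 26 settings that tested it. They were chosen in these same libraries for a high level or a large fold change. Their persistence was thus nearly fixed in advance and is no separate support. The 3 library measures kept their direction under every alternative run for them. The total of 7128 calls stayed within 1.5 times under all settings except 3: it was 4496 with at least 10 reads in each library (2244 higher in leaf), 10723 with the adjusted p alone (5391 higher in stem) and 1459 with whole counts only (806 and 653), which tests fewer transcripts by construction. Leaf calls, 3778 with TMM, were 6080 with library totals alone, 5926 and 5811 without the 10 and 100 most abundant transcripts in the totals, and 6166 with limma on log2(TPM + 0.1). By construction, these 4 settings lack TMM.

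The share of calls higher in leaf, 53.0% (Wilson 95% interval 51.8% to 54.2%), was 71.5% with library totals, 70.5%, 69.8% and 65.9% without the 10, 100 and 1000 most abundant, 63.0% with upper-quartile factors, 51.6% with DESeq2 size factors, 48.4% with DESeq2, 70.4% and 71.2% with limma on TPM at pseudocounts of 1 and 0.1, 51.5% with TMM on TPM, 49.9% with no filter and with 10 reads per library, 49.7% with the adjusted p alone, 48.4% with the threshold test against 1.5-fold, 55.2% with whole counts and 50.4% with the replicate block. Leaving out each library gave 48.2% to 52.4%, so the small leaf majority under TMM does not hold in every fit. The Wilson interval treats transcripts as independent and leaves out variation between libraries and scalings. It therefore does not measure the uncertainty of the share for the organs. The median log2 fold change of tested transcripts, 0.10, became 0.61, 0.57, 0.55 and 0.43 with library totals and without the 10, 100 and 1000 most abundant, 0.35 with upper-quartile factors, 0.49 and 0.58 with limma on TPM, 0.21 with no filter and 0 with all 9 libraries. Beyond the construction of each setting, the cause was not tested.

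With the replicate block, 6520 transcripts were called, 3289 higher in leaf and 3231 in stem. Deviations of same-numbered libraries correlated at -0.040, 0.018 and 0.020, and leaf replicates 1 and 3 correlated best with another number. All combinations of a leaf with a stem library lay between -0.077 and 0.057. Such weak values cannot decide whether the numbers are pairs. The labels state no pairing, so the reported fit used none. With classes by mean CPM, and by a geometric mean added later, the medians at 1 to 10 were 0.41 and 0.41, and at 100 to 1000 they were -0.34 and -0.42. Depth limits the class under 1 TPM, where most transcripts had too few reads to test.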
